A study of Mus musculus with 4 samples.

Results

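The genes of the cell cycle engine were compared between a control line and a line depleted of the glucocorticoid receptor (GR). The members were taken by name from all non-control probes of the array. The gene symbol had to mark a numbered A-, B-, D-, E- or G-type cyclin, a numbered cyclin-dependent kinase (CDK), a numbered CDK inhibitor or a numbered E2F. Ccnc and Ccnh, whose symbols carry no number, did not match. Rb1, Rbl1, Rbl2, Wee1, Tfdp1 and Tfdp2 were taken as well. This gave 106 of the 41174 non-control probes, for 54 of the 28146 gene symbols on the array. Of these, 83 probes of 47 genes passed the filter of a signal well above background on each array of 1 line or of both, and were kept, among 24440 kept probes in all. The remaining genes, for which no probe was kept, were Ccna1, Ccnb3, Cdkn2a, Cdkn2b, Cdkn1c, E2f4 and Ccnb1ip1. Ccnb1ip1, Cdkn2aip and Cdkn2aipnl encode binding proteins that matched by name only. The probe for the kinase once called Cdc2a is listed on the array as Cdk1.

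Both lines were made from EPH-4, a non-malignant mouse mammary epithelial cell line. EV-50 carries an empty H1-2 vector and has normal GR, and shGR-19 carries an shRNA vector against endogenous GR. Both were kept in serum-free medium with 2 µg/ml puromycin, and the labels name no glucocorticoid. Each line is a single clone, so the clone and the loss of GR cannot be told apart. RNA was hybridized to 2 arrays per line, with 300 ng labelled with Cy3 for each, and nothing in the labels says whether the duplicates were separate cultures, so their spread may be technical.

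D-type cyclins bind CDK4 and CDK6 and start the phosphorylation of the retinoblastoma family of pocket proteins, which otherwise hold E2F transcription factors in check. Released E2Fs, paired with a DP partner, turn on genes for DNA synthesis, among them E-type cyclins, which bind CDK2. Cyclin A and cyclin B then drive S phase and mitosis with CDK2 and CDK1, while INK4 and CIP/KIP proteins inhibit the kinases. In the mammary gland these proteins set the pace of epithelial growth in puberty and pregnancy, and cyclin D1 is needed for lobuloalveolar development.

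E2F sites and the cell cycle genes homology region (CHR) are the promoter elements through which many of these genes are themselves timed. Some of the members that hold them are therefore shown. Windows from 250 bases before to 50 after the start of transcription (RefSeq, GRCm38.p6) were matched for 42 of the 54 genes. The other 12 had no window and were not searched: Ccnd1, Ccnd2, Ccne2, Ccna2, Cdk5, Cdk17, Cdk19, Cdkn1c, Wee1, E2f4, E2f5 and Rb1. The E2F site was searched as TTTCCCGC, TTTCGCGC, TTTGCCGC or TTTGGCGC on either strand, and was found in 8 of the 42 genes (19%), against 2.6% of the 27025 genes with a window. The CHR, searched as TTTGAA or TTTAAA on either strand, was found in 15 genes (35.7%), against 30.6% of all. The exact palindromic glucocorticoid response element, with any 3 bases between its arms, was found in 0 of the 42 and in 0.0111% of all genes. The stretches below lie before the start of transcription and run 5′ to 3′ along the strand of the gene, with the matching letters in capitals. Among kept members, E2f2 had its E2F match at base 40 after the start, so it is not shown. The other E2F matches of kept members were at chr10:69353025-69353054 (minus strand) for Cdk1, chr10:128705173-128705202 (minus) for Cdk2, chr13:29986064-29986085 (minus) for E2f3, chr10:110745230-110745259 (plus) for E2f7, chr8:13338697-13338726 (plus) for Tfdp1 and chr2:157204535-157204563 (minus) for Rbl1.
Cdk1: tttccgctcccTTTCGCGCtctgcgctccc
Cdk2: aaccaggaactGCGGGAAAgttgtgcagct
E2f3: ttgaaaagccgGCGGGAAAtct
E2f7: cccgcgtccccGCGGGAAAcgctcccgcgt
Tfdp1: gggcgccgaagGCGCGAAAaggcgcgcagg
Rbl1: aagaaggcgatTTTCGCGCgctttgtcgc
In Cdk2, E2f3, E2f7 and Tfdp1 the site lay on the opposite strand, so the capitals are its reverse complement.

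The CHR matches shown next are examples from 4 members whose levels are described in detail, and lay close to the start. They were at chr7:38107491-38107516 (minus strand) for Ccne1, chr13:100786512-100786539 (minus) for Ccnb1, chr10:69352913-69352938 (minus) for Cdk1 and chr7:48881600-48881627 (minus) for E2f8, where the site is on the opposite strand.
Ccne1: gcgctgggattTTTAAAtgtcccgct
Ccnb1: gcggcccggggTTTAAAcctaagcccgg
Cdk1: accgcggcgagTTTGAAactgctggc
E2f8: agcgggttaatTTCAAAtcgggggctgg
The E2f3 window also held a CHR match, just before its E2F match. Further matches began 15 bases before the start in Cdkn1b, 71 before it in Cdk1 and 233 to 242 before it in Tfdp2. A match is a description of letters in a window and was not tested as a binding site.

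Values were deposited in 2 forms under the same sample labels, which did not give the same picture and are set side by side throughout. Whether the scanner files and the table columns of the replicate 1 arrays, EV-50 and shGR-19, come from the same hybridizations could not be settled. Each scanner difference, overlap and count of calls between the lines rests on those arrays. The scanner files hold the background-subtracted intensity of each spot, given here on a log2 scale on which 0 is the array's 75th percentile. The deposited table holds log2 values from GeneSpring from which the median of a probe over the 4 arrays had been taken off, so it shows differences between arrays and no level. In the scanner files the spread between duplicates was of the same order as that between the lines. Over the 82 member probes that were well above background throughout, the SD of the difference was 0.38 between the EV-50 arrays and 0.50 between the shGR-19 arrays, and 0.10 to 0.51 over the 4 pairs of arrays from different lines. Of these the arrays labelled replicate 1 gave 0.10 and those labelled replicate 2 gave 0.42. In the table it was 0.14 and 0.25 between duplicates and 0.42 to 0.49 between the lines. Over 21178 probes the SD was 0.62 between the EV-50 scanner arrays and 0.20 between the EV-50 table columns. The 2 forms thus also differed for EV-50. Nr3c1, which encodes GR, was at 1.73 and 1.85 on the EV-50 scanner arrays and at 1.39 and -0.11 on the shGR-19 arrays, replicates 1 and 2 in that order, so the array labelled shGR-19 replicate 1 lay near EV-50. In the table Nr3c1 was lower in shGR-19 by a log2 difference of -1.94 (adjusted p = 0.00216).

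Markers of other cell types were checked on the same arrays. Of 6 epithelial genes all were kept. Krt14, a basal keratin, was lower in shGR-19 in the table (log2 difference -1.13, limma, adjusted p = 0.00332). On the scanner arrays Krt14 was at 5.62 and 7.18 in EV-50 and at 5.65 and 5.98 in shGR-19, and the lines overlapped. Krt5, also a basal keratin, was at -0.30 in the table without passing the test (limma, adjusted p = 0.499). Krt8 and Krt18, luminal keratins, differed by 0.06 and 0.23 without passing the test. Of 4 fibroblast genes 2 were kept, and both rose in the table, Col1a2 by 3.27 (limma, adjusted p = 0.0012) and Pdgfra by 1.16 (limma, adjusted p = 0.00385). On the scanner arrays Col1a2 was at 0.61 and 1.49 in EV-50 and at 0.57 and 4.85 in shGR-19. Only shGR-19 replicate 2 was high there, and the lines overlapped, as they did for Pdgfra. Pdgfra was well above background on 1 EV-50 array and both shGR-19 arrays, and so passed the filter only through the line in which it was higher. The summed signal of the fibroblast list, in units of the 75th percentile, was 1.74 and 2.998 in EV-50 and 1.58 and 33.7 in shGR-19. Col1a1 and Thy1 were not kept. The epithelial sum was 806 to 826 in EV-50 and 725 to 864 in shGR-19. Of 4 leukocyte genes 3 were kept at dim signals, with sums from 0.38 to 0.54, and Ptprc was not well above background on any array. None of 3 endothelial genes was kept. The part of these markers in the differences below was not tested.

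In the table, Ccnd2, Ccne2, E2f1, E2f8 and Tfdp2 were lower in shGR-19 and Ccne1, Cdk18 and E2f3 were higher, at an adjusted p below 0.01 on at least 1 probe (limma, Benjamini-Hochberg adjustment over all kept probes). That is 10 of the 83 member probes (12%), against 11.6% of all kept probes, so the share called among the members was close to that of the whole array. By direction, 3 member probes were higher (3.61%, against 5.52% of all) and 7 were lower (8.43%, against 6.04% of all). With a difference of more than 2-fold also required, 1 member probe was higher (against 1.87% of all), that of Cdk18, and 2 were lower (against 2.39%), both of Ccnd2. In the scanner files 0 member probes were called in either direction, as were 0% of all kept probes. There, 0 member probes and 204 probes in all had an unadjusted p below 0.05, and the smallest adjusted p of any probe was 0.932. In bulk RNA, fewer cells in a phase of the cycle and less RNA per cell cannot be told apart. The table calls rest on all 4 columns, as a fit without 1 of them leaves a single array in 1 line. With all 41174 probes tested, 0 member probes were called, against 0.104% of all probes, so the calls were lost over the whole array.

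Over the 47 genes, each by its brightest kept probe, 17 were higher and 30 lower in shGR-19 in the table, with a median log2 difference of -0.10, against 0.02 over all 16756 genes. The lower genes made up 63.8% of the members and 47.8% of all genes. In the scanner files the median was -0.01, against 0.01 over all genes, with 20 members higher and 27 lower. It was -0.08 without shGR-19 replicate 1 and 0.06 without shGR-19 replicate 2, so its sign rested on shGR-19 replicate 2. The replicate 1 arrays gave a median of 0.03 and the replicate 2 arrays a median of -0.09.

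**Figure D1:**
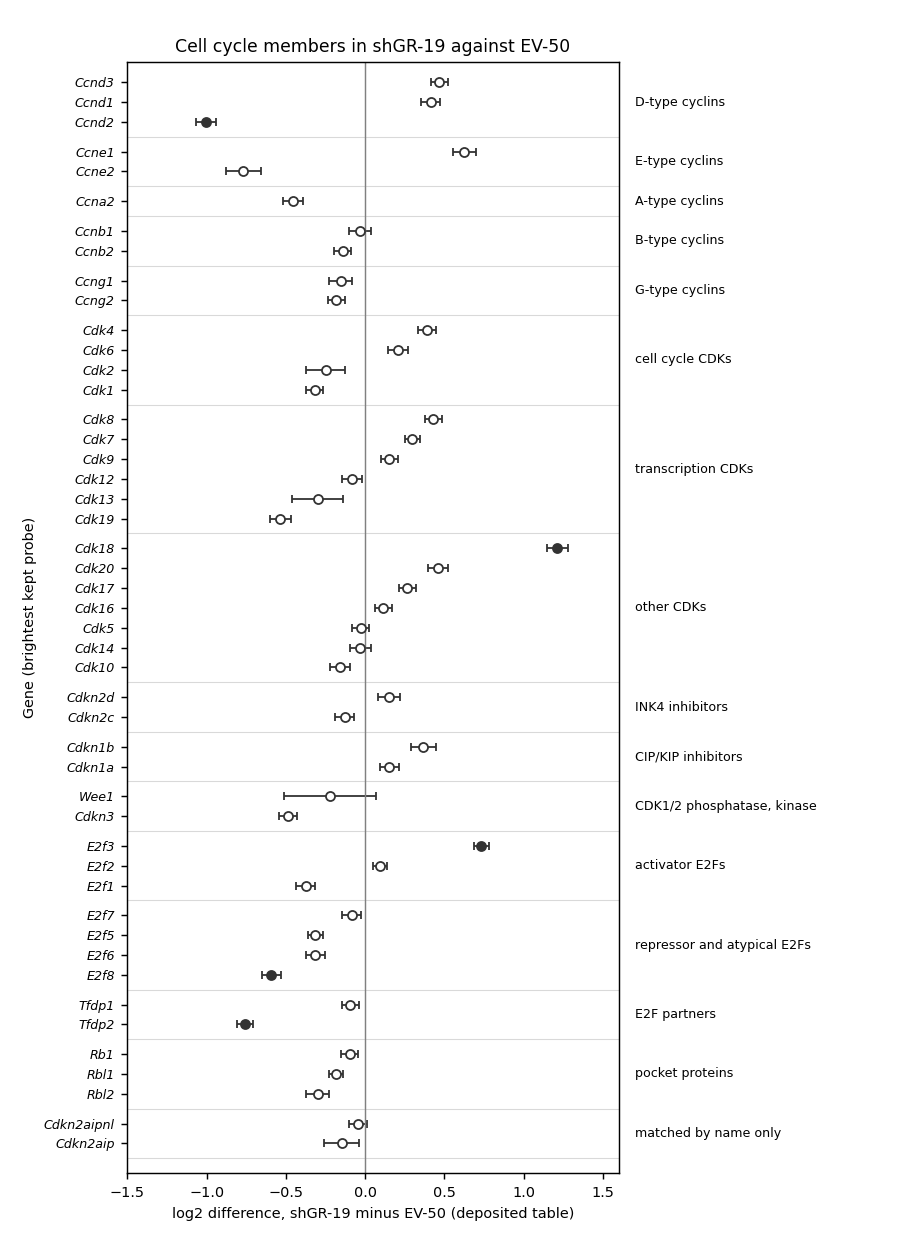
Log2 difference, shGR-19 minus EV-50, in the deposited table for the brightest kept probe of each of the 47 genes, grouped by role, with the standard error of the limma fit as bars (2 arrays per line). Filled points have an adjusted p below 0.01: Ccnd2, E2f8 and Tfdp2 lie to the left of 0 and Cdk18 and E2f3 to the right.

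The 3 D-type cyclins did not move together. Ccnd2 fell in shGR-19 in the table by a log2 difference of -1.003 ± 0.06 (SE, n = 2 per line; 2.00-fold; limma, adjusted p = 0.00475), while Ccnd1 and Ccnd3 were higher by 0.41 and 0.47 without passing the test (limma, adjusted p = 0.0186 and 0.0118). The table values of Ccnd2 were 0.57 and 0.47 in EV-50 and -0.50 and -0.47 in shGR-19. The lines were thus further apart than either pair of duplicates. On the scanner arrays Ccnd2 stood at 3.15 and 3.25 in EV-50 and at 3.22 and 2.31 in shGR-19, where only the array labelled shGR-19 replicate 2 was low and the lines overlapped. The scanner difference was -0.43 ± 0.37. All 3 Ccnd2 probes were called in the table, at -1.003, -0.94 and -1.04, and they lie at chr6:127089187-127089246, chr6:127079694-127079753 and chr6:127098696-127098755 (mm9, the build of the array annotation). With 1 column left out the adjusted p of the brightest Ccnd2 probe ranged from 0.0380 to 0.0445.

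Ccnd1, the D-type cyclin that is best known in mammary epithelium, stood at 3.42 and 2.88 in EV-50 and at 3.51 and 3.30 in shGR-19 on the scanner arrays. The lines overlapped there, and the lowest value was that of EV-50 replicate 2. In the table Ccnd1 was at -0.17 and -0.24 in EV-50 and 0.25 and 0.17 in shGR-19. Ccnd3 was at 2.89 and 3.59 in EV-50 and at 2.93 and 4.14 in shGR-19 on the scanner arrays. For Ccnd3 both replicate 2 arrays were above both replicate 1 arrays, whatever the line, and the scanner difference between the lines was 0.30 ± 0.51. The table values of Ccnd3, at -0.21 and -0.25 in EV-50 and 0.27 and 0.21 in shGR-19, separated the lines.

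**Figure D2:**
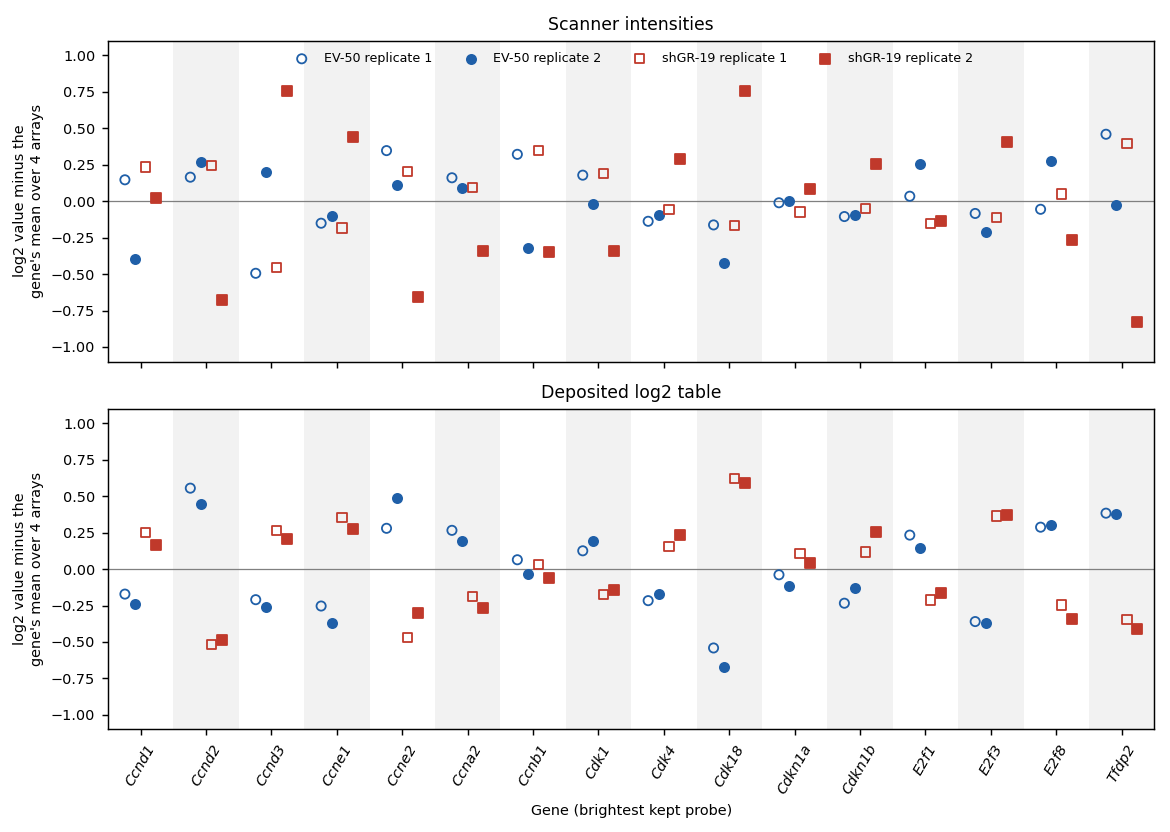
Log2 value of 16 members on each array, minus the mean of the gene over the 4 arrays, in the scanner files (upper panel) and in the deposited table (lower panel); open symbols are replicate 1 and filled symbols replicate 2, circles EV-50 and squares shGR-19. In the table both shGR-19 values of Ccnd2 lie below both EV-50 values and those of Cdk18 above, while in the scanner files shGR-19 replicate 2 alone stands apart for these genes.

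The 2 E-type cyclins, which activate CDK2 at the entry to S phase, lay in opposite directions in the table. Ccne1 had 2 kept probes, of which the brighter was higher by 0.63 ± 0.07 (limma, adjusted p = 0.0114) and the other by 0.59 ± 0.06 (limma, adjusted p = 0.00967), so that 1 of the 2 passed. Ccne2 had a brighter probe at -0.77 ± 0.11 (limma, adjusted p = 0.018) and another at -0.95 ± 0.06, which passed (limma, adjusted p = 0.00534). Ccne1 was at 3.28 and 3.33 in EV-50 and at 3.25 and 3.87 in shGR-19 on the scanner arrays. Ccne2 was at -0.70 and -0.94 in EV-50 and at -0.84 and -1.71 in shGR-19. For both genes the array that stood apart was shGR-19 replicate 2. The Ccne2 probes lie next to each other, at chr4:11130171-11130230 and chr4:11130287-11130346 (mm9). Both Ccne1 probes are annotated at the same place, chr7:38882937-38882960 (mm9).

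Ccna2, the cyclin A of dividing cells, was at -0.46 ± 0.06 in the table without passing the test (limma, adjusted p = 0.0159). Its scanner values were 4.65 and 4.58 in EV-50 and 4.58 and 4.15 in shGR-19. Ccna1, the cyclin A of germ cells, was well above background on only 1 array of each line. The mitotic cyclins Ccnb1 and Ccnb2 differed by -0.03 ± 0.07 and -0.14 ± 0.05 in the table (limma, adjusted p = 0.748 and 0.119). On the scanner arrays Ccnb1 was at 4.28 and 3.64 in EV-50 and at 4.30 and 3.60 in shGR-19, so the replicate number and not the line separated the values. The other Ccnb1 probes gave -0.15 and -0.16. Ccnb3 was not well above background on any array. The G-type cyclins, Ccng1 and Ccng2, which are known as p53 and stress response genes, differed by -0.15 and -0.18 in the table.

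Among the CDKs that drive the cycle, none passed the test in either form. In the table Cdk4, the partner of D-type cyclins, was higher by 0.39 ± 0.06 (limma, adjusted p = 0.018) and Cdk6, its close relative, by 0.21 ± 0.06 (limma, adjusted p = 0.0753). Cdk2, the partner of cyclins E and A, was at -0.25 ± 0.12 and Cdk1, the mitotic kinase, at -0.32 ± 0.05 (limma, adjusted p = 0.206 and 0.024). The scanner values of Cdk4 were 4.37 and 4.41 in EV-50 and 4.45 and 4.80 in shGR-19. Both shGR-19 values were above both EV-50 values, the value of shGR-19 replicate 1 only narrowly. The scanner values of Cdk1 were 4.43 and 4.23 in EV-50 and 4.44 and 3.91 in shGR-19. A second, dimmer Cdk1 probe gave -0.86 in the table but 0.10 on the scanner arrays.

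Cdk18, a kinase of the PCTAIRE group without a settled role in the cell cycle, had the largest difference among the 47 genes in either form. In the table it rose in shGR-19 by 1.21 ± 0.07 (limma, adjusted p = 0.00422), a 2.32-fold difference, from -0.57 and -0.70 in EV-50 to 0.60 and 0.57. On the scanner arrays it was at 3.08 and 2.82 in EV-50 and at 3.07 and 3.99 in shGR-19. Between the lines the difference was -0.01 for the replicate 1 arrays and 1.18 for the replicate 2 arrays, and the scanner difference was 0.59 ± 0.38. With 1 column left out of the table the adjusted p of Cdk18 ranged from 0.0370 to 0.0426. Cdk18 has 1 probe, at chr1:134010348-134010407 (mm9).

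The remaining CDKs were spread on both sides of 0, and none passed the test. The other PCTAIRE kinases, Cdk16 and Cdk17, were at 0.12 and 0.27 in the table, and Cdk20 was at 0.46. Cdk5, Cdk10 and Cdk14 were at -0.03, -0.16 and -0.03. Cdk14 followed the replicate number and not the line, with 0.84 and 2.24 in EV-50 and 0.83 and 2.03 in shGR-19 on the scanner arrays. Of the CDKs that act in transcription, Cdk7, Cdk8 and Cdk9 were at 0.30, 0.43 and 0.15 and Cdk12, Cdk13 and Cdk19 at -0.08, -0.30 and -0.53. Cdk8 and Cdk19, which are close paralogs and alternative kinases of the Mediator complex, thus had opposite signs (limma, adjusted p = 0.0137 and 0.0141).

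None of the CDK inhibitors passed the test. Cdkn1a, which encodes p21, was at 2.12 and 2.13 in EV-50 and at 2.06 and 2.21 in shGR-19 on the scanner arrays, and the lines overlapped. Its table difference was 0.15 ± 0.06 (limma, adjusted p = 0.128). Cdkn1b, which encodes p27, was at 1.48 and 1.49 in EV-50 and at 1.53 and 1.83 in shGR-19, with a table difference of 0.37 ± 0.08 (limma, adjusted p = 0.0383) on the brightest probe and -0.11 and 0.26 on the others. The INK4 genes Cdkn2c and Cdkn2d, for p18 and p19, differed by -0.13 and 0.15. Cdkn2a and Cdkn1c were not well above background on any array, and Cdkn2b was so only on EV-50 replicate 1. For these genes no difference was detectable. Cdkn3, a phosphatase that acts on CDKs, was at -0.48 ± 0.06 (limma, adjusted p = 0.0122), and Wee1, the kinase that inhibits CDK1, was dim and at -0.22 ± 0.29.

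The activating E2Fs differed from each other in the table. E2f3 rose on its brightest probe by 0.73 ± 0.05 (limma, adjusted p = 0.00484), E2f2 was at 0.09 ± 0.05 (limma, adjusted p = 0.2), and E2f1 was at -0.38 ± 0.06 on the brighter probe (limma, adjusted p = 0.0213) and fell by 0.61 on the log2 scale on the other (limma, adjusted p = 0.00923). The E2f3 values in the table were -0.36 and -0.37 in EV-50 and 0.36 and 0.37 in shGR-19. The duplicates were thus nearly equal and the lines clearly apart. Its scanner values were 1.84 and 1.71 in EV-50 and 1.81 and 2.33 in shGR-19. The brightest E2f3 probe lies at chr13:29998480-29998539 (mm9), and the other kept probes, at chr13:30001985-30003071 and chr13:30005369-30008755, gave 0.02 and 0.11, so the probes of this gene differed from each other. With 1 column left out the adjusted p of the brightest E2f3 probe ranged from 0.0425 to 0.0464.

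E2f1 on the scanner arrays was at 2.93 and 3.15 in EV-50 and at 2.74 and 2.76 in shGR-19 on the brighter probe. This was one of the members for which both replicate numbers gave the same direction, with replicate pairs at -0.19 and -0.39, and the lines did not overlap. The scanner difference was -0.29 ± 0.22 (limma, adjusted p = 1.00), and the dimmer probe gave the same difference with overlapping lines.

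The 4 kept E2Fs of the repressor and atypical classes were all on the lower side in the table, from -0.59 to -0.08. E2f8, an atypical E2F that is itself switched on by E2F activity in S phase, fell by 0.59 on the log2 scale (SE 0.06; limma, adjusted p = 0.00928). Its table values were 0.27 and 0.28 in EV-50 and -0.27 and -0.37 in shGR-19. Its scanner values were -0.67 and -0.34 in EV-50 and -0.57 and -0.88 in shGR-19, where the lines overlapped. With 1 column left out the adjusted p of E2f8 ranged from 0.0519 to 0.0586. E2f5, E2f6 and E2f7 were at -0.31, -0.32 and -0.08 and did not pass the test. E2f4 had 1 probe, not well above background on any array.

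Of the DP partners, with which the E2Fs other than the atypical ones bind DNA, Tfdp2 fell in the table by 0.76 on the log2 scale (SE 0.05; limma, adjusted p = 0.00537). Its values were 0.37 and 0.36 in EV-50 and -0.36 and -0.43 in shGR-19. On the scanner arrays it was at -0.36 and -0.85 in EV-50 and at -0.43 and -1.65 in shGR-19. Both replicate 2 arrays were below both replicate 1 arrays, and shGR-19 replicate 2 was the lowest. The other Tfdp2 probes were at -0.58 and -1.003 (limma, adjusted p = 0.0152 and 0.0131), and with 1 column left out the adjusted p of the brightest probe ranged from 0.0445 to 0.0463. Tfdp1, the more widely expressed partner, was at -0.10 ± 0.05. The pocket proteins Rb1, Rbl1 and Rbl2 were at -0.10, -0.18 and -0.30 and did not pass the test.

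Of the 8 members whose window held an E2F match, 7 had a kept probe. Of the 7, E2f3 alone passed the test in the table (14.3%, against 11.6% of all kept probes), a share close to that of the whole array. The others ranged from -0.32 for Cdk1 to 0.09 for E2f2, with Cdk2, E2f7, Tfdp1 and Rbl1 at -0.25, -0.08, -0.10 and -0.18.

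The scanner files were also read within each replicate number. Over the 47 genes the median size of the difference between the lines, without its sign, was 0.06 for the replicate 1 arrays and 0.27 for the replicate 2 arrays, the same as the 0.27 of the table. Over 21172 probes the table differences correlated with those of the replicate 2 arrays at r = 0.911 and with those of the replicate 1 arrays at r = 0.0431. These are correlations across probes, which are not independent replicates, and the table and the scanner files carry the same sample labels. Only 14 of the 83 member probes did not overlap between the lines in the scanner files (16.9%, against 17.8% of all), 9 of them higher and 5 lower in shGR-19. Of the table values, 71 did not overlap (85.5%, against 71.9% of all), 28 higher and 43 lower.

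**Figure D3:**
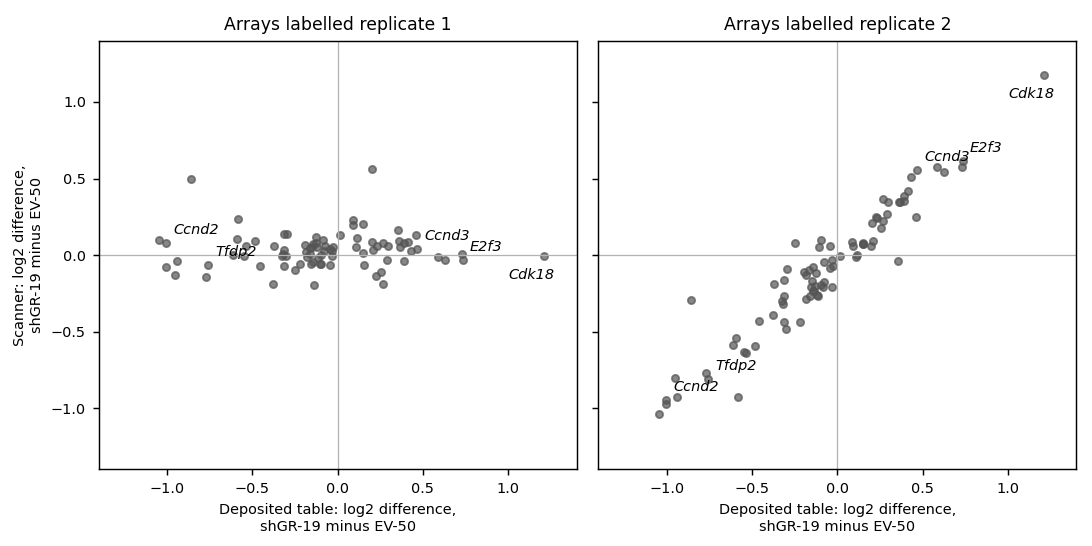
Log2 difference, shGR-19 minus EV-50, of the 83 kept member probes in the scanner files, for the arrays labelled replicate 1 (left) and replicate 2 (right), against the difference in the deposited table. On the left most points lie near 0 whatever the table gives, with Cdk18 at -0.01, and on the right they follow the table, with Cdk18 at 1.18 and Ccnd2 at -0.94.

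For 26 genes more than 1 probe was kept, which allowed the table differences to be checked within a gene. All probes of a gene had the same sign in 21 of them, and the median range within a gene was 0.17. The signs differed for Cdk7, Cdk12, Cdkn1b, Cdkn2aip and Rbl2. For Ccnd2 every probe was called, whereas for Ccne1, Ccne2, E2f1, E2f3 and Tfdp2 only 1 was. A dim Cdk17 probe, A_52_P49945, and a dim Rbl2 probe, A_51_P457113, were at 1.36 and 1.07 in the table on shGR-19 replicate 2 and at -0.10 and -0.37 on replicate 1. On the scanner arrays the same pairs of values were -2.71 and -2.71 for Cdk17 and -3.003 and -2.80 for Rbl2, so the 2 forms disagreed for these probes.

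**Figure D4:**
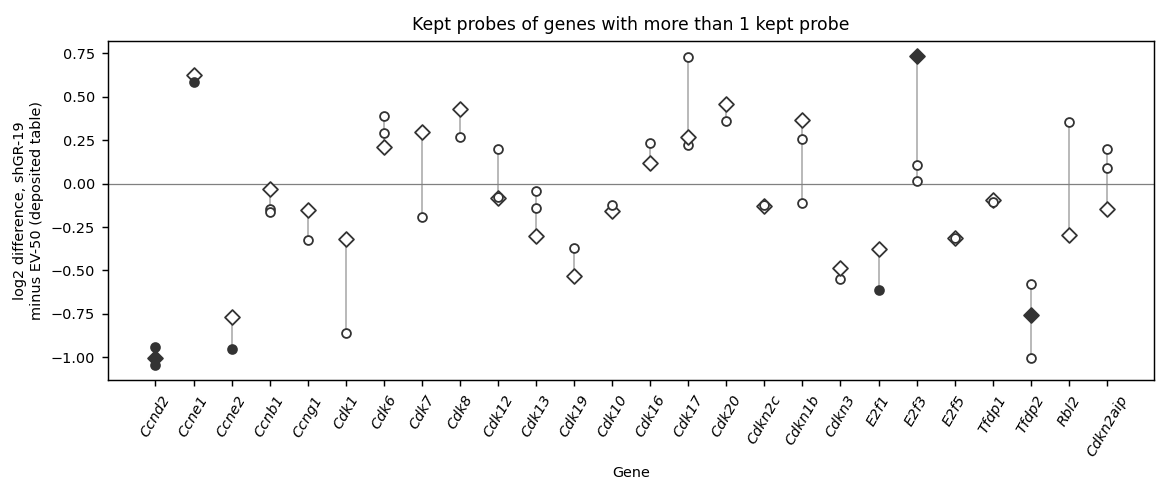
Log2 difference, shGR-19 minus EV-50, in the deposited table for every kept probe of the 26 genes with more than 1 kept probe; diamonds are the brightest probe of a gene, circles the others, filled symbols have an adjusted p below 0.01, and the line spans the probes of a gene. The 3 Ccnd2 probes lie together between -1.04 and -0.94, while 1 E2f3 probe lies at 0.73 and the others near 0.

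Of 32 other genes of the pathway, all of which had a kept probe, 0 were called higher and 4 lower in the table (12.5%, against 11.6% of all kept probes called in either direction), and 0 were called in the scanner files. The share was thus close to that of the whole array. Their median table difference was -0.22. Those that fell were Lin9, a subunit of the MuvB core that partners pocket proteins and B-Myb (-0.63, adjusted p = 0.00827), Gadd45a, a p53-induced stress gene (-0.78, adjusted p = 0.00515), Rrm2, a subunit of ribonucleotide reductase (-0.63, adjusted p = 0.00844), and Mcm5, a subunit of the replicative helicase (-0.79, adjusted p = 0.00469). Rrm2 and Mcm5 were 2 of 8 E2F target genes in the list, beside the 11.6% of all kept probes that were called, and the others included Pcna at -0.39, Mki67 at -0.42, Tk1 at 0.22 and Tyms at 0.01, which did not pass. The 7 genes of the DREAM and MuvB list were at -0.63 to 0.05, with Mybl2 and Foxm1 at -0.44 and -0.43. The 12 regulators of CDKs lay on both sides, from -0.63 for Cdc25a, a phosphatase that activates CDKs (limma, adjusted p = 0.0105), to 0.54 for Skp2, which targets p27 for destruction (limma, adjusted p = 0.0131), and none passed. Gadd45a followed the replicate number on the scanner arrays, with -0.34 and 1.74 in EV-50 and -0.25 and 0.84 in shGR-19.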

How the data were processed

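Gene expression in 4 samples, 2 per line, had been measured on one-colour Agilent Whole Mouse Genome arrays, which were on 1 slide and read in 1 scan. The authors deposited scanner files with the background-subtracted intensity of each spot (Agilent Feature Extraction 10.5.1.1, per the submitters' processing notes) and log2 values from GeneSpring as 1 table, with the median of every probe over the 4 columns at 0. Outlier spots (74 to 139 per array) were left out. The 75th percentile of the processed signal was 542 to 613, 23290 to 27358 of 43379 spots per array were well above background, and 0 were saturated. Precision is limited by there being 2 arrays per line.

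The processed signal was divided by its 75th percentile on the array and log2 was taken, and spots of 1 probe were averaged. A probe was well above background on an array where more than 0.5 of its spots were. Both forms were fitted on all kept probes with limma 3.58.1 (lmFit, eBayes) in R 4.3.3, with Benjamini-Hochberg adjustment. Counts of changed probes use an adjusted p below 0.01, with and without a 2-fold limit, and single genes an adjusted p below 0.01. No exact permutation test was run, since with 2 arrays per line its smallest p is 0.333. The replicate numbers made only 2 pairs, and no label says that a number marks a shared batch, so the arrays were not paired in the main design. Genes were named by role, each by its brightest kept probe, with other probes where their direction or call differed. Members, gene lists and motifs were chosen with earlier results of these data known. Probe coordinates are those of mm9. The limma fit and its calls were tested on simulated data, and the other steps were not. The comparison of D-type cyclin proteins was not run, as no protein table was used here. The alternatives tried were quantile normalization, normexp (offset 50), other probe filters, the table columns centred again and a prior with a trend. A block for the replicate number, single arrays left out, other thresholds and an equal-variance t-test were also tried.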

Additional observations from a re-analysis of the deposited data

How the results depend on the processing

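In the scanner files the counts of called member probes were 0 in each direction under every alternative run, and the replicate block also gave 0. In the table, 1 member probe was higher and 2 were lower. Each count fell to 0 with all probes kept, with the replicate block and with the equal-variance t-test after adjustment. At any fold, 0.104% of all probes were called with all probes kept and 0% with the replicate block. With no limit on the fold the main fit gave 3 member probes higher and 7 lower, against 5.52% and 6.04% of all probes. The cause of these shifts was not tested. Leaving out 1 column leaves a single array in 1 line and fewer degrees of freedom, so calls are not counted there. The replicate number as a block cannot move an estimate in this balanced design. With it, the 13 genes called in the table on their brightest kept probe, members and others, were no longer called. Leaving out 1 array gave a median of the member genes of -0.0803 to 0.0582 in the scanner files. The scanner duplicates' deviations correlated between the lines at r = 0.652, against 0.108 in the table. Correcting the background by normexp turned Cdkn1a in the scanner files to -0.0047. Leaving out 1 array turned the sign of scanner differences of 8 of 16 genes, with ranges of -0.0198 to 0.53 for Ccnd1, -0.89 to 0.0273 for Ccnd2, -0.31 to 0.90 for Ccnd3, -0.0554 to 0.57 for Ccne1, -0.35 to 0.35 for Ccnb1, -0.42 to 0.11 for Cdk1, -0.0693 to 0.0883 for Cdkn1a and -1.05 to 0.18 for Tfdp2. In the table it did so for 5 uncalled genes of 47, with ranges of -0.0797 to 0.0160 for Ccnb1, -0.0693 to 0.0122 for Cdk5, -0.0805 to 0.0176 for Cdk14, -0.55 to 0.11 for Wee1 and -0.0925 to 0.0034 for Cdkn2aipnl. At an adjusted p below 0.01 and any fold, 27 of 82 member probes (against 23% of all probes) were called with probes well above background on all 4 arrays, and 35 of 83 (against 32.9%) with an intensity trend and robust prior. The kept probes of Wee1 and Cdk2 were dim, though well above background on all 4 arrays. Their standard errors in the table were 0.29 and 0.12, which limits what they can show.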
